A study of Mus musculus with 31 samples.

Results

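Blood vessels were followed through 37 genes that mark their parts: the endothelium lining the vessel, the mural cells (pericytes and smooth muscle) wrapped around it, and the barrier that seals the vessels of the brain. The genes were listed by symbol, with earlier results of these data known. Of the 37, 36 were matched to a row of a count table listing 47729 genes, and Lef1os1 was not matched. All 36 passed the filter on low counts and were tested. By role they comprised 8 endothelial surface and junction genes, 5 vascular receptor tyrosine kinases, 4 endothelial transcription factors, 7 matched barrier and fenestration genes and 12 mural cell genes.

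The libraries came from mouse embryos carrying the Sox10:H2BVenus BAC transgene in every group, whose fluorescent nuclei marked glia and guided laser microdissection of nerve pieces, without any sorting of cells. Vessels were therefore not selected, and were present as part of each piece. Of the 31 libraries, 15 were taken at E16.5 (E gives the embryonic day), with 4 of olfactory nerve from the olfactory mucosa (ON), 4 of the outer and 4 of the inner olfactory nerve layer (ONL) around the olfactory bulb, and 3 of trigeminal nerve (TN). "Outer" and "inner" described only the position of the cut. A further 16 libraries represented ON at E11.5 (n = 4), ON at E13.5 (n = 7) and ONL at E13.5 (n = 5). The labels of 10 of these 16 disagree with the group means published with the study: all 31 libraries carried weight in the mean of the group used here, and 21 in that of their label. Here E13.5 ONL was made up of the libraries labelled E11.5_ON1 to E11.5_ON4 and E13.5_ON1, E13.5 ON of E13.5_ON2 to E13.5_ON7 and E13.5_ONL1, and E11.5 ON of E13.5_ONL2 to E13.5_ONL5. The results under the labels are given beside each early comparison. Library totals ran from 3512627 to 36705535 counts, and the TN libraries were the deepest at E16.5 (30221586 to 32508725, against 13379107 to 16800784 in the other groups). Sox10, the glial gene that guided the cuts, was present in every library, at 39.9 to 712 CPM (counts scaled to the library size). Each library pooled several sections of an embryo, and the pieces included the tissue beside the nerve. The embryos were fewer than the libraries in the early groups (4 at E13.5 and 2 for E11.5 ON). Some of those libraries therefore share an embryo, and which ones was not stated. At E16.5 the authors cut trigeminal and olfactory pieces from the same sections, so libraries of different groups share embryos too. The p-values measure the spread between these libraries.

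Endothelial cells hold to one another through VE-cadherin (Cdh5) and PECAM-1 (Pecam1), and respond to vascular growth factors through the VEGF receptors (Kdr, Flt1, Flt4) and through Tie1 and Tek. They recruit pericytes by secreting PDGF-B (Pdgfb), which binds the PDGF receptor beta (Pdgfrb) on mural cells, and smooth muscle adds a contractile apparatus of actin (Acta2), transgelin (Tagln) and myosin (Myh11). In the brain, endothelial cells also close their junctions with claudin-5 (Cldn5), carry glucose (Slc2a1), lipid (Mfsd2a) and thyroid hormone (Slco1c1) inward, pump drugs outward (Abcb1a), and give up Plvap, the diaphragm protein of permeable vessels. The ONL lies around the olfactory bulb at the brain surface, whereas ON and TN pieces lie in the periphery. The paper describes the glia of the olfactory nerve as part of a transition between peripheral and central nervous systems. It also cites work in which glia of the outer ONL take part in the blood-brain barrier.

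Promoter sequences from RefSeq were available for 23 of the 36 genes. Of these, 3 are shown because their genes carry the results below: Mfsd2a and Slco1c1 were the barrier genes that differed most between ONL and nerve at E16.5, and Rgs5, a regulator of G protein signalling made by pericytes, had the largest rise in the nerve from E11.5 to E13.5 among genes detected at both stages. Each line gives the 250 bases before the start of the gene in the GRCm38 build (minus strand for Mfsd2a at chr4:122961189-122961438, plus strand for Slco1c1 at chr6:141524104-141524353 and Rgs5 at chr1:169655251-169655500), 5′ to 3′ on the strand of the gene, with CTTTGA in capitals on either strand (TCAAAG on the other). These letters are the core of the sites bound by TCF and LEF factors, through which Wnt signals act.
Mfsd2a: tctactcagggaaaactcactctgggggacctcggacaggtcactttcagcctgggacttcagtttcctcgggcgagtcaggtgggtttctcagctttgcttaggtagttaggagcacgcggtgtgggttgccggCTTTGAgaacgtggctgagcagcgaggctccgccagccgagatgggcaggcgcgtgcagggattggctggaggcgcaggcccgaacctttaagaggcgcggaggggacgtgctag
Slco1c1: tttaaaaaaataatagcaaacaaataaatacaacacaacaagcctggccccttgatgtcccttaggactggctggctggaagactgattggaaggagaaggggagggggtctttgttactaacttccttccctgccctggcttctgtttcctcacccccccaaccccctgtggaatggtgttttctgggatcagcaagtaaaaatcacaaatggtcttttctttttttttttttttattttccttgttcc
Rgs5: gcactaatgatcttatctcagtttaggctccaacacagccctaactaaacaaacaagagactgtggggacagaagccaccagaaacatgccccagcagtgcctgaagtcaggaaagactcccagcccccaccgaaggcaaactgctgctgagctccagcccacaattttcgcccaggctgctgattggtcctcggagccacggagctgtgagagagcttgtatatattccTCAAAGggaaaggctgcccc

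CTTTGA occurred once in the Mfsd2a and Rgs5 windows and not in that of Slco1c1. Over the members it was found in 5 of 23 windows (21.7%), against 14.0% of the windows of 27025 genes. GGAA, the core of sites for ETS factors such as Erg, was found in 19 of 23 (82.6%, against 93.4%), and AACAAT, a SOX core, in 2 of 23 (8.70%, against 9.65%). The CArG box of smooth muscle genes was found in 0 of 23, against 1.40% of all windows. Where a gene had more than 1 listed start, the first was used. All letters were sought on both strands, and overlaps between motifs were allowed. These are matches of letters, not sites.

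**Figure D1:**
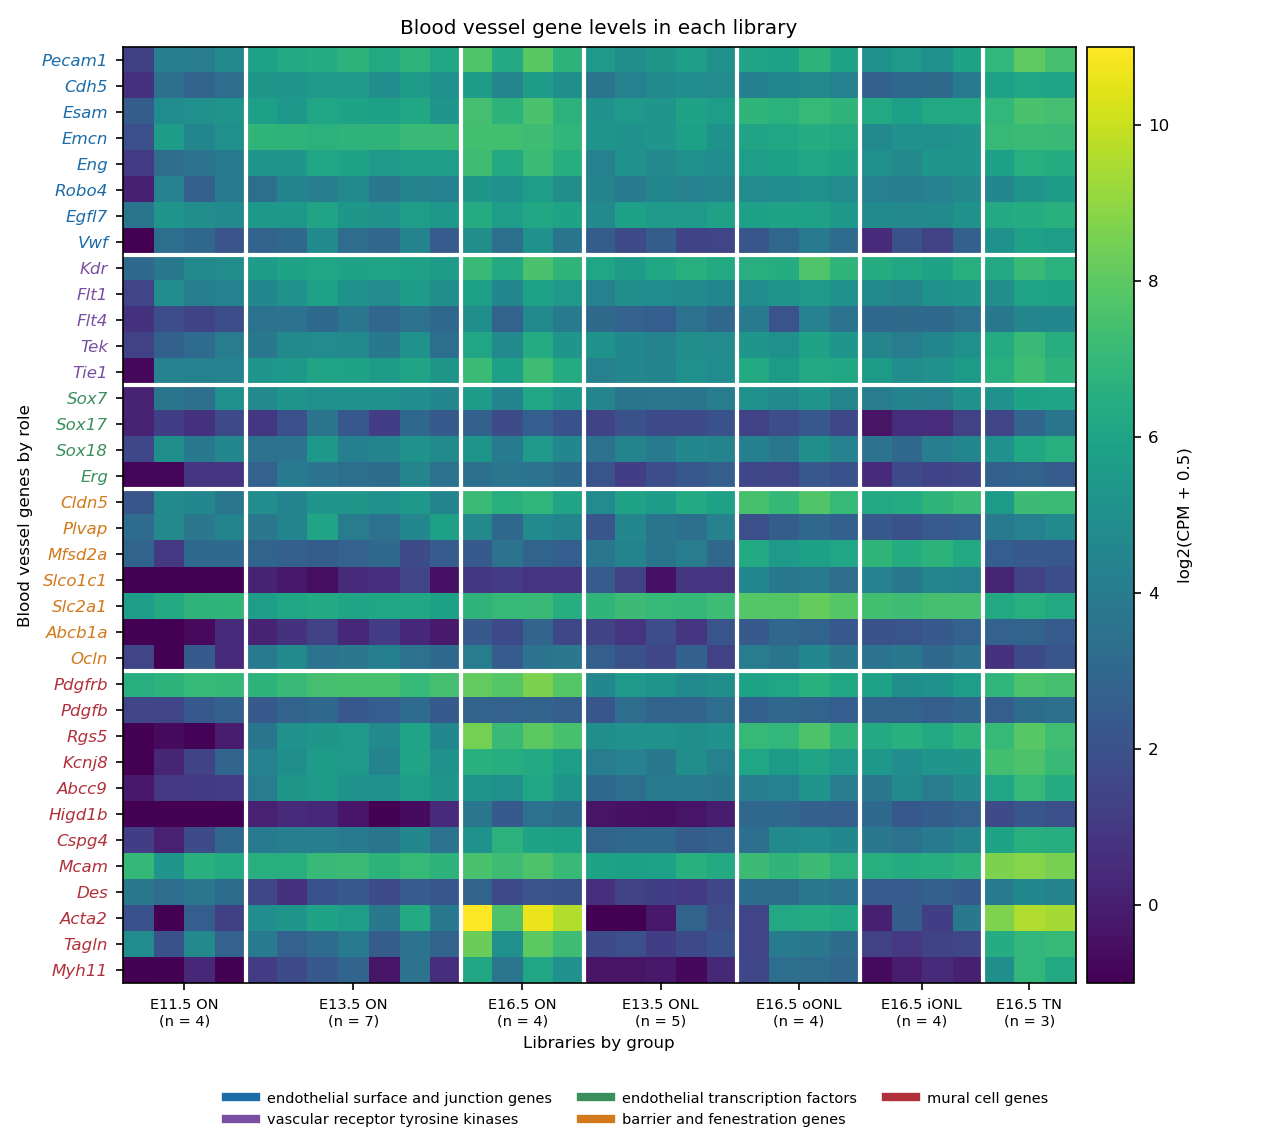
Levels of the 36 blood vessel genes, as log2(CPM + 0.5), in each of the 31 libraries (columns, by group) with the genes in rows by role. Acta2 is brightest in E16.5 ON and E16.5 TN, Mfsd2a and Slco1c1 brighten in the E16.5 ONL columns, and the first E11.5 ON column is dark for most endothelial genes.

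Every group held endothelial and mural transcripts, but in different mixtures. Per kilobase of exon, a scale on which levels of different genes can be set side by side, Cldn5 had the highest level of the 36 in outer ONL (117 ± 29.7 CPM per kilobase, mean ± SD) and in inner ONL (71.5 ± 20.1), followed in both by Slc2a1 (68.1 ± 8.54 and 48.3 ± 3.04). The third in inner ONL was Mfsd2a (43.4 ± 8.02). In E16.5 ON and TN the order was led by Acta2, at 533 ± 377 and 278 ± 83.2 CPM per kilobase, with the next gene Tagln in ON (95.2 ± 63.2) and Mcam, a cell adhesion molecule of mural and endothelial cells, in TN (122 ± 13.2). The libraries of ON were far apart for Acta2: its level in replicate 2 was 202 CPM against 2056 in replicate 1. At E13.5, Slc2a1 (38.76 ± 4.70) and Cldn5 (38.6 ± 13.51) stood within their spread of each other at the top of the ONL order, and Mcam led in ON (34.6 ± 6.18). Summed over a role, the 7 barrier and fenestration genes, Plvap among them, gave 429.7 to 609.7 CPM in outer ONL and 195 to 309.5 in E16.5 ON. The 12 mural genes gave 464 to 712 CPM and 1007 to 3475. Thus the ranges of both sums did not overlap between these tissues, and they ran in opposite directions, though not every gene followed its sum.

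At E16.5 the outer ONL was compared with ON to ask how vessel genes differed between the nerve layer around the bulb and the nerve in the mucosa. The transporters Mfsd2a, Slco1c1 and Slc2a1 were higher in outer ONL, while Plvap, several endothelial genes and most called mural genes were lower. Across the members 4 were higher and 11 lower, beside 10.2% of all genes tested called higher and 11.8% lower. Calls are at an adjusted p under 0.05 over 19332 genes by edgeR's quasi-likelihood test, and log2 fold changes are given ± SE. The median log2 fold change was -0.56 over the members and 0.01 over all genes. In these bulk pieces, fewer cells of a type and less RNA per cell cannot be told apart.

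Mfsd2a, the lipid transporter, and Slco1c1, the thyroid hormone transporter, differed most among the barrier genes. Mfsd2a measured 80.9, 43.3, 56.0 and 65.3 CPM in the outer ONL libraries and 4.76, 11.3, 6.83 and 5.54 in ON. Every outer ONL library lay above every ON library, with a log2 fold change of 3.11 ± 0.38, adjusted p = 2.57e-07, or 8.65-fold. Slco1c1 measured 23.4, 13.8, 15.4 and 9.16 CPM in outer ONL and 1.42, 1.67, 1.30 and 1.33 in ON. Its ON libraries lay close together and far below all those of outer ONL (3.43 ± 0.62, adjusted p = 0.00015). Slc2a1, the glucose transporter, was already abundant in ON, at 112, 133, 135 and 89.0 CPM, and reached 227, 218, 283 and 226 in outer ONL. Its groups did not overlap (1.02 ± 0.18, adjusted p = 9.45e-05).

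Plvap, which marks permeable vessels, went the other way. It measured 3.38, 5.40, 7.90 and 6.10 CPM in outer ONL and 24.9, 7.49, 25.9 and 20.9 in ON. ON replicate 2 lay within the outer ONL range and the other 3 ON libraries well above it (-1.80 ± 0.50, adjusted p = 0.00941). Cldn5 was at 183, 129, 216 and 133 CPM in outer ONL and 145, 95.1, 119 and 63.1 in ON. These groups overlapped and Cldn5 did not pass the test (0.65 ± 0.39, adjusted p = 0.262). Nor did the efflux pump Abcb1a (log2 fold change 0.49) or the junction protein Ocln (0.50). Mfsd2a, Slco1c1 and Plvap are given by library although they lay outside the 20 called members with the highest mean level. That choice was made after their values were seen.

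**Figure D2:**
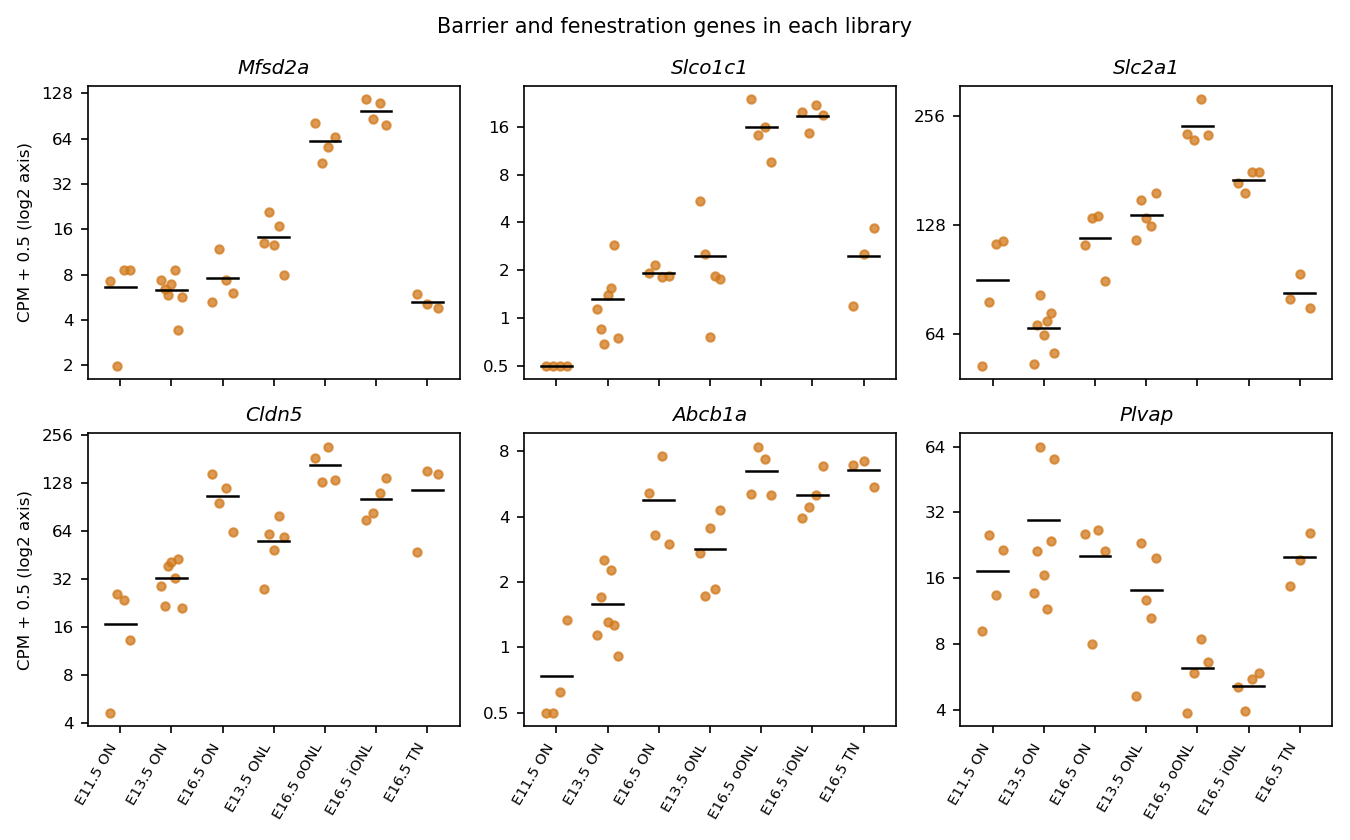
CPM + 0.5 on a log2 axis of 6 barrier and fenestration genes in each library (points) with the group mean (line), for 7 groups. Mfsd2a in outer and inner ONL at E16.5 lies between 43.3 and 116 CPM before 0.5 is added, above all libraries of the other 5 groups.

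The glial marker genes moved in the same direction as these transporters. Their summed level was 18730 to 32940 CPM in outer ONL and 1685 to 3930 in ON, with 6 of 8 higher. Slc2a1 and Slco1c1 are also made by glia. The part of glia in the transporter differences, that of Mfsd2a included, was not tested.

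Among the 8 endothelial surface and junction genes, 3 were lower in outer ONL. Pecam1 measured 64.8, 57.2, 107 and 62.1 CPM in outer ONL and 211, 81.3, 242 and 108 in ON. Only outer ONL replicate 3 reached above the lowest ON library, replicate 2 (-1.14 ± 0.41, adjusted p = 0.0456). Emcn, an endothelial sialomucin, measured 63.9, 71.0, 85.3 and 76.7 CPM in outer ONL and 162, 165, 155 and 119 in ON, without overlap (-1.02 ± 0.35, adjusted p = 0.0339). Eng, a coreceptor for TGF-beta family ligands, measured 51.1, 54.1, 66.8 and 59.9 CPM and 157, 81.4, 144 and 89.2, also without overlap (-1.02 ± 0.34, adjusted p = 0.0282). Cdh5 (-0.85), Esam (-0.34), Robo4 (-0.45), Egfl7 (-0.30) and Vwf (-1.32) did not pass. In the fit of all 31 libraries, the calls of these endothelial genes were near the threshold. Pecam1, Emcn and Eng were each lost without ON replicate 1 (adjusted p = 0.125, 0.0691 and 0.1 by edgeR). They were also lost without outer ONL replicate 1 (edgeR's adjusted p = 0.105, 0.0881 and 0.072), replicate 2 (0.109, 0.0682 and 0.0615) or replicate 4 (0.106, 0.0622 and 0.0536). Pecam1 (0.142) and Eng (0.0625) were also lost without ON replicate 3, and Emcn (0.066) without ON replicate 2, by edgeR's adjusted p.

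Of the 5 receptor tyrosine kinases 0 passed by edgeR (0 also at an unadjusted p under 0.05 and by DESeq2), with log2 fold changes from -0.69 for Tie1 to -0.05 for Kdr. Kdr, the main VEGF receptor, was at 93.4, 85.7, 206 and 114 CPM in outer ONL and 134, 81.6, 187 and 114 in ON, ranges that overlapped nearly throughout. Of the transcription factors, the ETS factor Erg was lower, at 2.39 to 4.34 CPM in outer ONL and 8.09 to 12.5 in ON (-1.73 ± 0.53, adjusted p = 0.0182), a call lost without outer ONL replicate 1 (adjusted p = 0.0559) or 2 (0.0527). Sox7, Sox17 and Sox18 did not pass.

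Mural genes are given in 3 sets, by the size of the difference and by the call. Contractile genes differed most. Acta2 measured 2.38, 74.9, 81.8 and 71.6 CPM in outer ONL and 2056, 202, 1620.1 and 799.8 in ON. Both tissues had 1 library far below its group, outer ONL replicate 1 and ON replicate 2, and the groups did not overlap (-4.34 ± 0.97, adjusted p = 0.00131). Tagln measured 2.38, 15.01, 13.7 and 8.97 CPM and 321, 32.1, 252 and 152, with the same libraries lowest (-4.24 ± 0.60, adjusted p = 3.44e-06). Tagln shares 1241 of its 1988 exonic bases with Gm48529 on the opposite strand, which the kit does not tell apart, so its level is uncertain. Myh11 had 2.46 to 9.74 CPM and 12.8 to 74.1 (-2.70 ± 0.75, adjusted p = 0.00883).

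The second set was of mural genes that were lower by less. Pdgfrb measured 61.3, 67.5, 97.7 and 69.6 CPM in outer ONL and 274, 228, 395 and 228 in ON, with a wide gap between the groups (-1.93 ± 0.23, adjusted p = 2.13e-07). Cspg4, the proteoglycan NG2, had 9.97 to 29.3 CPM and 34.5 to 104 (-1.56 ± 0.42, adjusted p = 0.00716). Abcc9, the regulatory subunit of the pericyte potassium channel, measured 16.9, 18.6, 38.1 and 15.9 CPM and 36.69, 31.9, 65.5 and 36.99. Outer ONL replicate 3 reached into the ON range and the call was marginal (-0.93 ± 0.34, adjusted p = 0.0499). It was lost in 5 of the 8 fits that left out a library of these groups. In the third pattern the pericyte genes Rgs5 (-0.73), Kcnj8 (-0.54) and Higd1b (-0.46) did not pass, nor did Pdgfb (0.07), the endothelial ligand for Pdgfrb. Desmin (Des) stood outside all of these and was higher in outer ONL, at 8.82 to 13.52 CPM against 2.78 to 6.87 (1.34 ± 0.31, adjusted p = 0.00201).

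Markers of epithelium and fibroblasts moved with the mural and endothelial genes, beside 11.8% of all genes called lower. All 8 epithelial genes were lower in outer ONL (summed level 6.45 to 10.9 CPM, against 176 to 581 in ON), as were 5 of 10 fibroblast genes (6043 to 11680 against 10180 to 17050). Macrophage genes had a lower sum (293 to 399 against 419 to 860.1), but 1 of 10 was called lower, near the share of all genes. The part of the surrounding tissue in the vessel differences was not tested.

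With the replicate number as a block, 23 members were called in place of 15, with 5 higher and 18 lower, beside 15.3% and 16.2% of 16239 genes. All 15 were among them. The pairing by number is uncertain, since correlations of same-numbered libraries overlapped those of differently numbered ones and shared embryos were not stated. By edgeR's test with the block, the adjusted p was 0.00414 for Pecam1, 0.000813 for Emcn, 0.00483 for Eng, 0.00258 for Erg and 0.0015 for Abcc9. Of the 8 added, Cldn5 was higher (0.66, adjusted p = 0.00674) and 7 were lower: Cdh5 (-0.81, adjusted p = 0.0341), Tie1 (-0.62, adjusted p = 0.0212), Rgs5 (-0.69, adjusted p = 0.0356), Flt4, Vwf, Kcnj8 and Mcam. Grouping the early libraries by their labels left 10 of the 15, since all libraries shared 1 estimate of the spread.

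**Figure D3:**
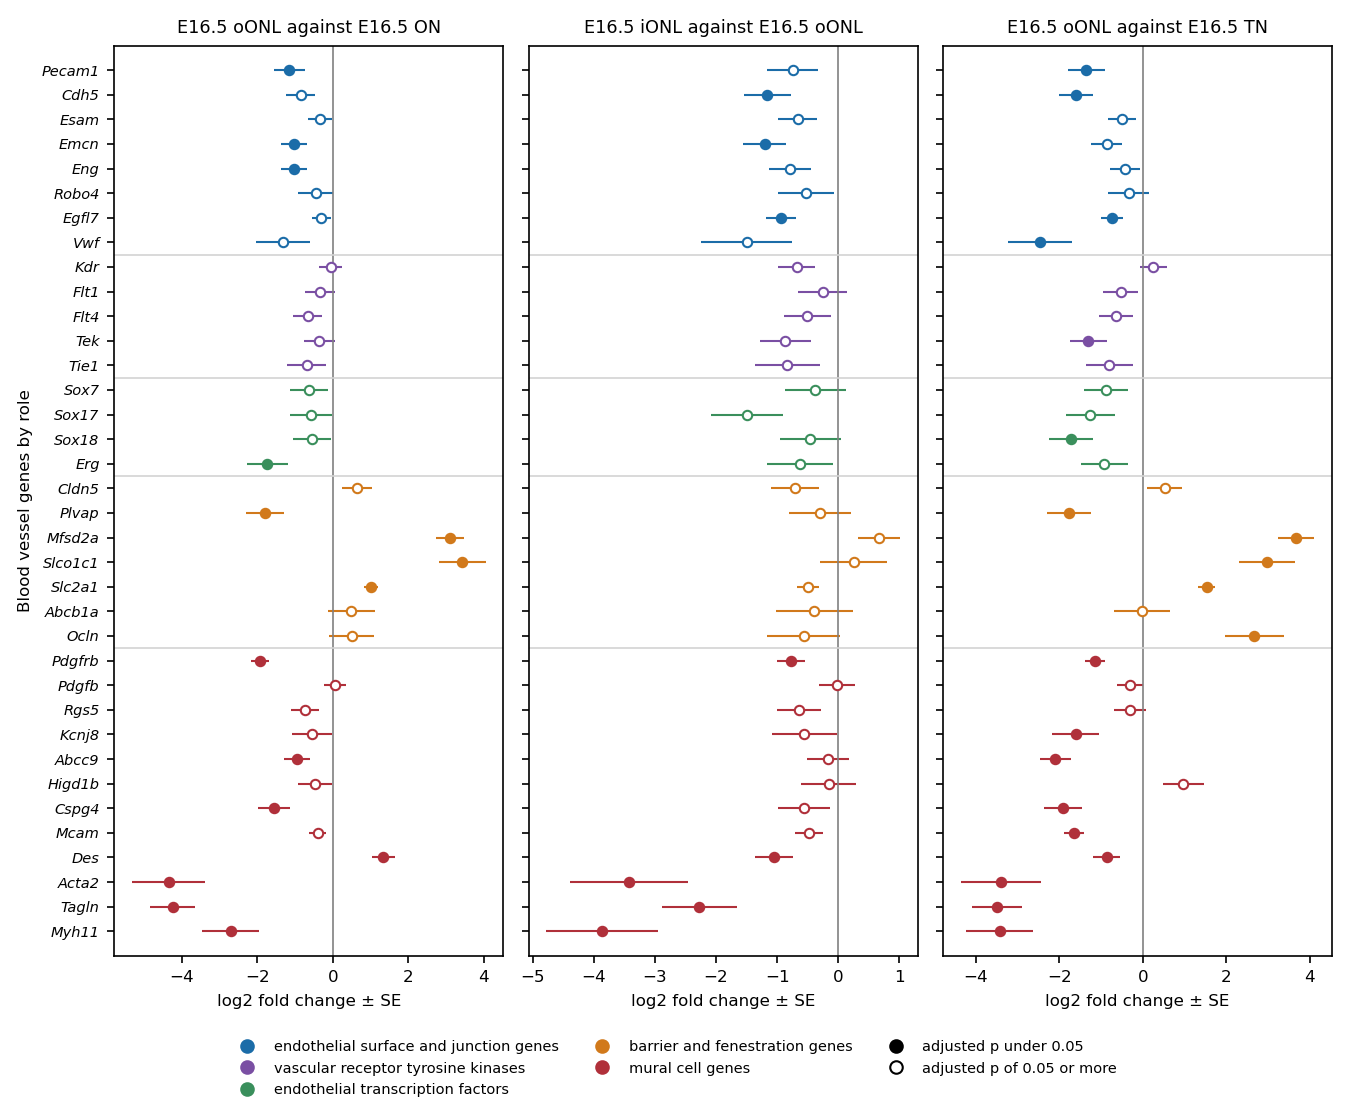
Log2 fold change ± SE of the 36 blood vessel genes (rows, coloured by role) in 3 comparisons at E16.5, filled where the adjusted p is under 0.05. In outer ONL against ON, Mfsd2a (3.11), Slco1c1 (3.43), Slc2a1 (1.02) and Des (1.34) lie to the right and 11 filled points to the left.

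To set barrier and mural genes against the amount of endothelium, 12 of them were divided by Cdh5 in each library, after adding 0.5 CPM, and compared over libraries by an exact two-sided permutation test in 8 comparisons (96 values). With 4 libraries against 4 the smallest possible p is 0.0286, which became 0.056 after Benjamini-Hochberg adjustment over the 96 values. With 4 against 3, as for TN, the smallest is 0.0571, so those comparisons could not pass. No comparison within E16.5 passed, which does not show that the ratios were alike. Relative to Cdh5, the log2 ratio of outer ONL to ON was 3.83 for Mfsd2a, 3.75 for Slco1c1, 1.81 for Slc2a1, 1.45 for Cldn5 and 1.29 for Abcb1a. For each of these all 4 outer ONL libraries lay above all 4 ON libraries (exact p = 0.0286, adjusted p = 0.056). All 4 lay below for Plvap (-0.85) and Pdgfrb (-1.13). The ratios of Rgs5 (0.10), Kcnj8 (0.25) and Abcc9 (-0.18) overlapped between the tissues. The size of all these ratios depends on the endothelial gene used as reference. With the replicate block, the log2 fold change between these tissues was -0.81 for Cdh5, -1.07 for Pecam1 and -0.10 for Kdr.

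Inner and outer ONL were compared to ask whether vessel genes followed position within the layer. Of the members 8 were lower in inner ONL and 0 higher by edgeR's test (0 higher also at an unadjusted p under 0.05 and by DESeq2), beside 5.94% and 8.20% of all genes. The median log2 fold change was -0.63. Acta2 differed strongly, at 0.538, 5.34, 1.81 and 13.502 CPM in inner ONL, all 4 below the 3 higher outer ONL libraries (-3.42 ± 0.97, adjusted p = 0.0145). Cdh5 measured 5.99, 7.67, 8.48 and 15.1 CPM in inner ONL and 17.6, 22.2, 24.6 and 19.1 in outer ONL, without overlap (-1.16 ± 0.38, adjusted p = 0.0383). Egfl7, a protein secreted by endothelium, measured 25.4, 24.4, 26.7 and 35.7 and 53.7, 60.9, 57.6 and 41.7 (-0.93 ± 0.25, adjusted p = 0.00881). Emcn (-1.21), Pdgfrb (-0.77), Des (-1.05), Tagln (-2.27) and Myh11 (-3.86) made up the 8. Although its groups did not overlap, the Cdh5 call was lost in 6 of the 8 fits that left out a library (edgeR's adjusted p from 0.0546 to 0.135), that of Pdgfrb in 3, and those of Acta2, Emcn and Des in 2 each.

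Of the barrier genes 0 passed in either direction by edgeR (at an unadjusted p under 0.05 and by DESeq2, 0 were higher and 1 lower). Mfsd2a was 116, 86.5, 109 and 78.4 CPM in inner ONL, where the lowest library lay below the highest of outer ONL (0.67 ± 0.34, adjusted p = 0.235). Slc2a1 was 166, 156, 178 and 178 (-0.49 ± 0.18, adjusted p = 0.0672) and did not pass either. All 10 fibroblast genes were also lower in inner ONL (summed level 1086 to 2402 CPM against 6043 to 11680), and 8 of 10 neuronal genes were higher (2659 to 4845 against 596 to 1543). Inner pieces included olfactory bulb, and its part in these differences was not tested. The count of 8 became 17 when the 2 groups were fitted alone, with or without the replicate block, and 13 with E16.5 alone. In these fits Mfsd2a was called higher in inner ONL (0.67, adjusted p = 0.0317, with the 2 groups alone, 0.69, adjusted p = 0.0241, with the block, and 0.71, adjusted p = 0.0388, with E16.5 alone), and the others, Slc2a1 among them, were lower. The count was 3 under the labels, 4 without outer ONL replicate 3 or inner ONL replicate 1, and 5 without inner ONL replicate 3.

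The trigeminal nerve provided another peripheral nerve, dissected from branches close to the olfactory tissue. Few members were called between ON and TN, with 3 members higher and 3 lower in ON, beside 13.0% and 10.6% of all genes. Mcam measured 189, 157, 198 and 142 CPM in ON and 404, 455 and 367 in TN, without overlap (-1.25 ± 0.25, adjusted p = 0.000288). Abcc9 measured 36.69, 31.9, 65.5 and 36.99 CPM and 68.2, 131 and 87.2, every TN library being above every ON library (-1.16 ± 0.36, adjusted p = 0.0192). Des had 2.78 to 6.87 CPM and 14.8 to 23.5 (-2.21 ± 0.33, adjusted p = 8.13e-06). Desmin is also a protein of skeletal muscle, and 7 of 8 muscle genes were lower in ON (summed level 10.7 to 19.4 CPM against 112 to 187).

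The higher genes in ON were Pdgfrb, at 274, 228, 395 and 228 CPM against 119, 197 and 176 in TN (0.78 ± 0.24, adjusted p = 0.0181), Higd1b (1.43 ± 0.50, adjusted p = 0.038) and Ocln (5.07 to 16.52 against 1.15 to 3.82 CPM, 2.17 ± 0.69, adjusted p = 0.0218). Ocln is also made by epithelium, and 7 of 8 epithelial genes were higher in ON (176 to 581 against 20.4 to 31.5 CPM). The part of muscle and epithelium in these values was not tested. The call of Higd1b was lost in 6 of the 7 fits that left out a library (adjusted p from 0.0585 to 0.125), that of Abcc9 in 4, that of Ocln in 3 and that of Pdgfrb in 2. Scaling by total count gave 4 higher and 2 lower. Without ON replicate 1 or TN replicate 1, 3 members were called in place of 6; with the 2 groups fitted alone 11 were, and under the labels 2.

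Between outer ONL and TN more members were called, with 4 higher and 16 lower, beside 14% and 12.3% of all genes, and a median of -0.87. This comparison shares its libraries with those above. The 4 higher were barrier genes. Mfsd2a was at 5.44, 4.62 and 4.30 CPM in TN, close to its level in ON (3.68 ± 0.43, adjusted p = 9.5e-08). Slc2a1 was at 79.1, 93.2 and 74.9 CPM in TN (1.53 ± 0.20, adjusted p = 8.1e-07). Slco1c1 (2.97) and Ocln (2.67) were the others, and Plvap was lower (-1.77). The summed level of the glial genes was 18730 to 32940 CPM in outer ONL and 1489 to 1852 in TN, with 3 of 8 higher and 1 lower, and their part in these values was not tested.

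Of the endothelial genes, Cdh5 measured 57.4, 67.8 and 64.7 CPM in TN, all above the outer ONL libraries (-1.60 ± 0.40, adjusted p = 0.00284). Tek, the angiopoietin receptor, measured 38.1, 32.4, 59.4 and 38.6 CPM in outer ONL and 84.0, 140.5 and 88.9 in TN, without overlap (-1.31 ± 0.44, adjusted p = 0.0272). Pecam1, Egfl7, Vwf and Sox18 were lower as well. Of the 12 mural genes 9 were lower, from Des (-0.87) to Tagln (-3.50). Kcnj8, the pore of the pericyte potassium channel, measured 65.2, 46.7, 64.5 and 43.6 CPM in outer ONL and 166, 199 and 137 in TN (-1.60 ± 0.56, adjusted p = 0.0331). Its partner Abcc9 was lower by more (-2.09 ± 0.37, adjusted p = 5.9e-05), and both were without overlap. Skeletal muscle genes were lower in outer ONL in 8 of 8, and fibroblast genes in 6 of 10. Several calls did not hold in every fit that left out 1 of the 7 libraries: those of Kcnj8 (adjusted p up to 0.0985), Egfl7 (0.123) and Des (0.193) were lost in 5, those of Tek (0.141) and Pecam1 (0.139) in 4, that of Sox18 in 2, and those of Vwf and Plvap in 1.

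At E13.5 the ONL and ON were compared in the same way. Of the members 2 were higher and 14 lower in the ONL, beside 15.4% and 16.1% of all genes, with a median of -0.77. Slc2a1 measured 116, 149, 133, 126 and 156 CPM in the ONL, and 52.2 to 81.2 with a median of 67.2 in ON. The groups did not overlap (1.04 ± 0.15, adjusted p = 1.72e-06). Mfsd2a measured 12.5, 20.4, 12.2, 16.3 and 7.52 CPM in the ONL, and 2.94 to 8.07 with a median of 5.89 in ON. The library labelled E13.5_ON1 was the only one of the ONL within the ON range (1.24 ± 0.30, adjusted p = 0.00156). Slco1c1 was low in both tissues, at 0.260 to 4.98 CPM and 0.189 to 2.38 (1.04 ± 0.54, adjusted p = 0.157).

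Several endothelial genes were lower in the E13.5 ONL. Pecam1 measured 44.0, 29.6, 40.5, 53.0 and 31.9 CPM in the ONL, and 57.8 to 111 with a median of 78.6 in ON, without overlap (-1.08 ± 0.35, adjusted p = 0.0186). Emcn measured 36.5, 33.8, 39.3, 54.9 and 35.8 CPM, and 103 to 139.8 with a median of 113 in ON (-1.56 ± 0.30, adjusted p = 0.000144). Eng (-0.83), Vwf (-1.74), Erg (-1.64) and the junction gene Ocln (-1.91) were also lower. Of 12 fits that left out a library, the call of Vwf was lost in 5, that of Eng in 3 and that of Pecam1 in 2. Of the mural genes 8 were lower. Pdgfrb measured 23.8, 42.6, 36.1, 26.6 and 31.4 CPM in the ONL, and 109 to 185 with a median of 174 in ON, far apart and without overlap (-2.28 ± 0.20, adjusted p = 2.96e-10). Rgs5 did not pass (31.3 to 34.7 CPM and 12.4 to 63.9, -0.07 ± 0.30, adjusted p = 0.904).

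As at E16.5, the glial genes had a higher sum in the ONL (4307 to 6742 CPM against 489 to 1078, 5 of 8 higher and 2 lower) and the epithelial genes a lower one (4.75 to 22.7 against 298 to 555, 7 of 8 lower). Their part in the differences was not tested. Under the labels, 1 member was higher and 20 lower (17.7% of all genes called in either direction), and 8 calls were shared with those above. There the log2 fold changes of Slc2a1 and Mfsd2a were 0.04 and -0.05, so the higher transporters of the E13.5 ONL depend on the grouping used here.

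Whether the ONL to nerve difference changed from E13.5 to E16.5 was tested as an interaction, which shares its libraries with both comparisons. It was called for 4 members, 3 higher and 1 lower, beside 5.59% and 6.75% of all genes. The difference was larger at E16.5 for Mfsd2a, with 1.24 at E13.5 and 3.11 at E16.5 (change 1.87 ± 0.47, adjusted p = 0.00635). For Des it went from -0.85 to 1.34 (change 2.19 ± 0.42, adjusted p = 0.000571), and for Ocln from -1.91 to 0.50 (change 2.42 ± 0.80, adjusted p = 0.0441). For Tagln it went from -1.76 to -4.24 (change -2.48 ± 0.74, adjusted p = 0.0241). Slco1c1 missed the threshold (2.39 ± 0.81, adjusted p = 0.0507), and so did Slc2a1 (-0.02 ± 0.23, adjusted p = 0.982). Under the labels 7 members were called (12.5% of all genes in either direction), 2 of them shared, and Des was at -0.27. Without the library labelled E13.5_ON1 or without outer ONL replicate 1 the count was 2. The call of Ocln was lost in 13 of the 20 fits that left out a library (edgeR's adjusted p from 0.0506 to 0.0971) and that of Tagln in 3 (0.0519 to 0.0691), among them both of these.

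In the nerve, vessel genes rose from E11.5 to E13.5. Of the members 25 were higher and 2 lower at E13.5, beside 20.2% and 16.4% of all genes, with a median of 1.62. Of the 12 mural genes 7 rose and 1, Des, fell. Rgs5 measured 0, 0.136, 0.0415 and 0.485 CPM in the E11.5 libraries, and 12.4 to 63.9 with a median of 33.6 at E13.5 (7.66 ± 0.54, adjusted p = 5.74e-12). Kcnj8 measured 0, 0.706, 2.28 and 6.98 CPM at E11.5, and 19.3 to 64.0 with a median of 35.4 at E13.5 (3.92 ± 0.58, adjusted p = 4.28e-06). Abcc9 measured 0.397, 1.52, 1.58 and 1.65 CPM, and 16.4 to 50.6 with a median of 37.6 (4.86 ± 0.40, adjusted p = 1.26e-10). In all 3 every E11.5 library was below every E13.5 library.

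Higd1b and Slco1c1 had 0 counts in all 4 E11.5 libraries. Against a floor of 3 counts over that group (0.0232 CPM), Higd1b was at least 21.6-fold and Slco1c1 at least 35.4-fold higher at E13.5, where their means were still low at 0.5002 ± 0.348 CPM and 0.819 ± 0.759 CPM (mean ± SD, n = 7). Pdgfrb, in contrast, was already abundant at E11.5 (95.6, 109, 133 and 127 CPM) and did not pass (0.43 ± 0.20, adjusted p = 0.0865). Mcam was also present early, at 128, 38.1, 97.8 and 82.6 CPM, and did not pass (0.42 ± 0.21, adjusted p = 0.114). In the first library of each series, labelled E13.5_ONL2, the endothelial surface and junction genes summed to 26.1 CPM, against 133 to 181 in the others. Its fibroblast genes summed to 2496 CPM, against 2314 to 3125 in the others. The part of tissue other than vessels in the levels of Pdgfrb and Mcam was not tested.

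Endothelial genes were also higher at E13.5, with 6 of 8 surface genes, 5 of 5 receptor kinases and 3 of 4 transcription factors. Cdh5 measured 1.11, 10.4, 6.64 and 9.28 CPM at E11.5, and 28.7 to 48.3 with a median of 40.6 at E13.5 (2.51 ± 0.37, adjusted p = 4.07e-06). Tie1 measured 0.106, 19.5, 18.6 and 19.7 CPM, and 38.6 to 64.8 with a median of 47.7 (1.82 ± 0.50, adjusted p = 0.00535). Neither gene overlapped between the stages. Flt1, a VEGF receptor, measured 2.38, 29.2, 17.0 and 18.7 CPM, and 23.4 to 57.5 with a median of 34.2 (1.13 ± 0.37, adjusted p = 0.0171). Sox7, a SOX factor of endothelium, measured 0.609, 12.2, 10.4 and 31.8 CPM, and 23.4 to 38.3 with a median of 31.6 (1.18 ± 0.46, adjusted p = 0.0453). Flt1 and Sox7 overlapped at the top of the E11.5 range. The Sox7 call was lost in 7 of the 11 fits that left out a library (adjusted p from 0.0521 to 0.115), with its value at 0.773 without the library labelled E13.5_ONL2 and 1.99 without that labelled E13.5_ONL5. The 2 genes that fell were Des (-1.71 ± 0.27, adjusted p = 1.04e-05) and Slc2a1, which measured 51.7, 77.6, 113 and 115 CPM at E11.5, and 52.2 to 81.2 with a median of 67.2 at E13.5 (-0.44 ± 0.16, adjusted p = 0.0313), a call lost in 5 of the 11 fits (adjusted p from 0.0586 to 0.172).

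The library labelled E13.5_ONL2, the first of each E11.5 series above, stood apart. Pecam1 was at 1.88 CPM there, and it had the lowest sums of the group for red cell genes (1317 CPM) and macrophage genes (24.8 CPM). Its mural sum was 274 CPM, within the range of the others (165 to 286 CPM). Divided by Cdh5, Pdgfrb (86.0), Slc2a1 (46.5), Plvap (7.76) and Mfsd2a (6.12) were each highest of the group in this library. Rgs5 and Kcnj8 were at 0 there. The cause of these ratios was not tested. Without this library 26 members were called. Fibroblast genes rose as well, in 9 of 10. Under the labels, 5 members were higher and 2 lower (17.5% of all genes in either direction) and 3 calls were shared, so the rise of vessel genes at this step depends on the grouping used here.

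From E13.5 to E16.5, 18 members were higher in ON and 0 lower by edgeR's test (0 lower also at an unadjusted p under 0.05 and by DESeq2), beside 15.2% and 13.6% of all genes, with a median of 0.87. Acta2, Tagln and Higd1b rose most at this step, with Tagln and Higd1b within their SE of each other. Acta2 measured 13.8 to 81.8 with a median of 37.1 CPM at E13.5, against 2056, 202, 1620.1 and 799.8 at E16.5 (4.83 ± 0.79, adjusted p = 3.51e-05). Tagln measured 5.26 to 15.3 with a median of 8.58 CPM, against 321, 32.1, 252 and 152 (4.28 ± 0.48, adjusted p = 1.31e-07). Even ON replicate 2, the lowest at E16.5, was above every E13.5 library for Acta2 and Tagln. Rgs5 continued to rise, to 366, 137, 255 and 183 CPM (2.77 ± 0.32, adjusted p = 1.54e-07), with Myh11 (3.49 ± 0.64, adjusted p = 0.000131), Higd1b (4.24 ± 0.43, adjusted p = 5.85e-08) and Cspg4 (2.02 ± 0.36, adjusted p = 9.64e-05).

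Among endothelial genes, Esam, a junctional adhesion molecule, measured 37.8 to 71.3 with a median of 53.9 CPM at E13.5, and 178, 108, 189 and 104 at E16.5 (1.39 ± 0.28, adjusted p = 0.000332). Cldn5 measured 20.6 to 42.2 with a median of 32.1 CPM, and then 145, 95.1, 119 and 63.1 (1.72 ± 0.34, adjusted p = 0.000294). Both were without overlap between the stages. Kdr (1.15 ± 0.26, adjusted p = 0.00134), Eng (1.26 ± 0.29, adjusted p = 0.00158), Tek and Pecam1 were also higher, the call of Pecam1 being lost in 7 of the 11 fits that left out a library (adjusted p from 0.0569 to 0.175). Cdh5 (-0.06 ± 0.33, adjusted p = 0.922), Mfsd2a (0.29 ± 0.32, adjusted p = 0.544) and Plvap (-0.55 ± 0.43, adjusted p = 0.364) did not pass. Macrophage genes were higher in 8 of 10 (summed level 419 to 860.1 CPM against 149 to 374) and fibroblast genes in 7 of 10. Under the labels 13 members were called, all higher and all shared with the 18 (25.1% of all genes in either direction).

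**Figure D4:**
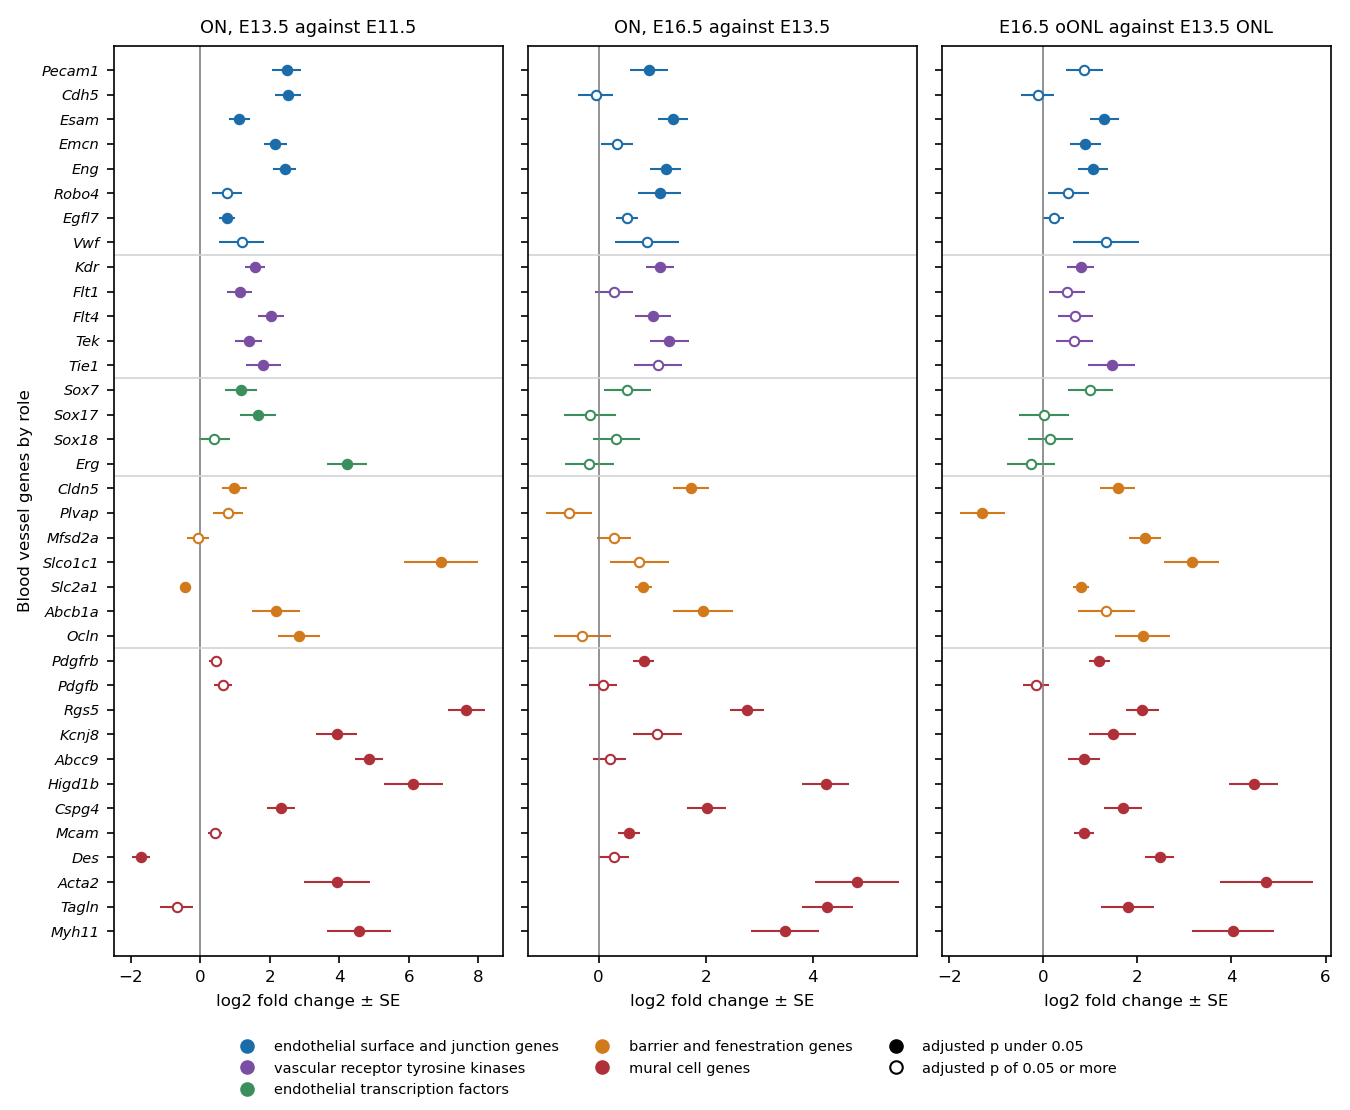
Log2 fold change ± SE of the 36 blood vessel genes (rows, coloured by role) between stages, filled where the adjusted p is under 0.05. Filled points to the right number 25 in ON from E11.5 to E13.5, 18 in ON from E13.5 to E16.5 and 21 in ONL from E13.5 to outer ONL at E16.5, and the points of Higd1b and Slco1c1 at the first step depend on the fit, since E11.5 ON had 0 counts.

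In the ONL, 21 members were higher at E16.5 (outer ONL) than at E13.5 and 1 was lower, beside 21.9% and 20% of all genes, with a median of 1.03. Barrier genes made up 5 of the 21, and mural genes 11. Mfsd2a went from the E13.5 ONL levels given above to 80.9, 43.3, 56.0 and 65.3 CPM, without overlap (2.16 ± 0.34, adjusted p = 5.32e-06). Slco1c1 measured 4.98, 2.02, 0.260, 1.35 and 1.25 CPM at E13.5, and 23.4, 13.8, 15.4 and 9.16 at E16.5 (3.15 ± 0.58, adjusted p = 7.56e-05). Cldn5 measured 27.1, 60.8, 47.9, 79.3 and 58.4 CPM, and 183, 129, 216 and 133 (1.58 ± 0.37, adjusted p = 0.000903). For these genes every E16.5 library was above every E13.5 library. The single fall was that of Plvap, from 4.15, 22.7, 12.2, 10.1 and 19.2 to 3.38, 5.40, 7.90 and 6.10 CPM, with the library labelled E11.5_ON1 already as low as those of E16.5 (-1.29 ± 0.48, adjusted p = 0.0316), and the call was lost in 5 of the 9 fits that left out a library (adjusted p from 0.0552 to 0.101). Other tissue moved at this step too. The summed level of the glial genes went from 4307 to 6742 to 18730 to 32940 CPM, that of the fibroblast genes from 2113 to 4236 to 6043 to 11680, and that of the neuronal genes from 4049 to 6345 to 596 to 1543, each without overlap. Their part in the vessel values was not tested.

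Of the mural genes 11 of 12 were higher. Rgs5 was nearly constant over the E13.5 ONL libraries, at 31.3, 33.7, 34.7, 31.5 and 33.1 CPM, and rose to 131, 123, 202 and 111 (2.105 ± 0.35, adjusted p = 1.45e-05). Pdgfrb measured 23.8, 42.6, 36.1, 26.6 and 31.4 CPM, and 61.3, 67.5, 97.7 and 69.6 (1.195 ± 0.21, adjusted p = 3.78e-05). Higd1b was at 0.195 to 0.430 CPM at E13.5 and at 5.68 to 7.85 at E16.5 (4.47 ± 0.52, adjusted p = 1.14e-07). Pdgfb did not pass (-0.16 ± 0.28, adjusted p = 0.686), and was the single member called in none of the 8 comparisons. Fewer endothelial genes passed, with Esam (1.30), Emcn (0.89) and Eng (1.06) among 8 surface genes, Kdr and Tie1 among the receptor kinases, and 0 of 4 transcription factors by edgeR (1 at an unadjusted p under 0.05 and 0 by DESeq2). The call of Emcn was lost in 6 of the 9 fits that left out a library (adjusted p from 0.0519 to 0.0742), that of Abcc9 in 3 and that of Kdr in 2. Without outer ONL replicate 3 the values of Kdr and Abcc9 were 0.442 and 0.482. Egfl7 measured 26.6, 54.4, 44.6, 45.0 and 57.4 CPM, and 53.7, 60.9, 57.6 and 41.7, and did not pass (0.22 ± 0.23, adjusted p = 0.477). Under the labels 22 members were higher and 1 lower (35.2% of all genes in either direction), with 16 calls shared, and Pdgfrb was at -0.79.

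**Figure D5:**
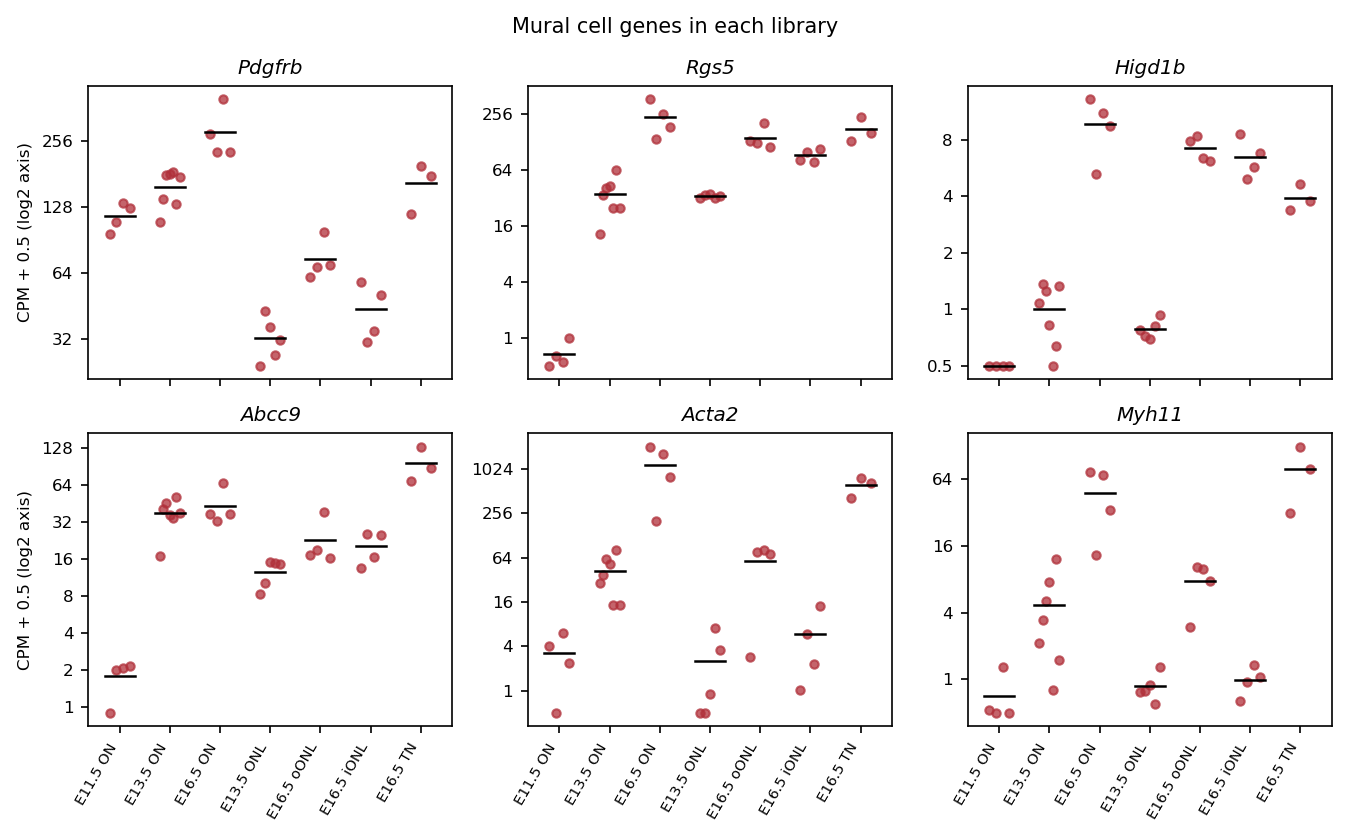
CPM + 0.5 on a log2 axis of 6 mural cell genes in each library (points) with the group mean (line), for 7 groups. Rgs5 and Higd1b climb with stage in ON, Acta2 is spread from 202 to 2056 CPM in E16.5 ON, and Pdgfrb is lower in ONL than in ON at both stages.

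Relative to Cdh5, 33 of the 96 values passed the exact permutation test after adjustment, all in the 4 comparisons that include an E13.5 group. Group size bore on which values could pass, since comparisons within E16.5 had the limits on p given above. Cldn5 rose against Cdh5 from E13.5 to E16.5 by 1.81 on the log2 scale in ON (exact p = 0.00606, adjusted p = 0.0342) and by 1.68 in ONL (exact p = 0.0159, adjusted p = 0.0462). Mfsd2a rose against Cdh5 in ONL (2.20, exact p = 0.0159, adjusted p = 0.0462), and in ON its change was 0.35 (exact p = 0.473, adjusted p = 0.534). These sizes rest on the choice of Cdh5, which did not pass at this step in ON: with Tie1 as the reference Cldn5 was at 0.685 in ON and 0.191 in ONL and Mfsd2a at 0.709 in ONL, and with Pecam1 at 0.87, 0.787 and 1.31, and of these 6 values only that of Cldn5 in ON relative to Tie1 passed (adjusted p = 0.0485). Plvap changed by -1.001 against Cdh5 in ONL (exact p = 0.0159, adjusted p = 0.0462). Rgs5 rose against Cdh5 in ON by 2.89 from E11.5 to E13.5 (exact p = 0.00606, adjusted p = 0.0342) and by 2.92 from E13.5 to E16.5 (exact p = 0.00606, adjusted p = 0.0342). Since Rgs5 lay below the 0.5 CPM added in all 4 E11.5 libraries, the former value is set by that addition, and it was 4.34 with 0.1 CPM and 2.21 with 1 CPM. The number that passed was 12 with Tie1 and 13 with Pecam1 as the reference, and 0 under the labels.

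Other genes that act on vessels were counted from lists chosen for their function. Beside each count stands the share of all genes called in that direction. Of 14 vascular ligands and co-receptors tested, 4 were lower (11.8% of all genes) in outer ONL than in ON at E16.5, among them Angpt1, the ligand of Tek (-1.92 ± 0.59, adjusted p = 0.0166), and Vegfc, a ligand of Flt4 (-1.84 ± 0.35, adjusted p = 0.000185). From E11.5 to E13.5, 6 of the 14 rose in ON (20.2%), among them Angpt1 (7.03 ± 0.79, adjusted p = 5.04e-08), and 1 fell (16.4%). Of 21 Wnt and barrier regulators, 8 were higher (10.2%) and 4 lower (11.8%) in outer ONL than in ON, among the former Foxf2, a forkhead factor of brain pericytes (5.23 ± 0.89, adjusted p = 4.92e-05). At E13.5, 10 of the 21 were higher (15.4%) and 5 lower (16.1%) in the ONL, among the former Ndp, whose product Norrin binds Fzd4 (3.57 ± 0.25, adjusted p = 2.06e-12). Some of these regulators are also made by glia and neural cells, and their cells of origin were not tested. Of 14 arterial and venous genes, 4 were higher (10.2%) and 5 lower (11.8%) in outer ONL than in ON, led by the Notch targets Hey2 (2.14 ± 0.29, adjusted p = 1.98e-06) and Heyl (1.96 ± 0.28, adjusted p = 3.44e-06). By in situ hybridization, the paper found both genes in glia of the ONL and, for Heyl in at least some cells, of the olfactory mucosa. It also saw Heyl in vascular cells. Glial genes had the higher sum in outer ONL given above, and the part of glia in the levels of Hey2 and Heyl was not tested.

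The 12 other mural genes divided in the same comparison into 3 higher (10.2%) and 3 lower (11.8%). This list and the arterial and venous one shared genes, Heyl among them, so the counts of the lists are not independent. Vtn, which encodes vitronectin and is made by brain pericytes, had 1454 ± 312 CPM in outer ONL and 42.4 ± 65.7 CPM in ON (mean ± SD, n = 4), with a log2 fold change of 5.10 ± 0.86, adjusted p = 4.9e-05. Tbx18, a T-box factor of mural cells, had 21.3 ± 2.79 CPM and 1.03 ± 0.583 CPM (4.35 ± 0.53, adjusted p = 2.69e-07). Both were opposite in direction to Acta2, Tagln and Myh11. Vtn is not particular to mural cells. By in situ hybridization at E16.5, the paper found it in glia of the ONL and not in those of the olfactory mucosa. Its level moved with the glial sums (18730 to 32940 CPM in outer ONL and 1685 to 3930 in ON). The part of glia in its level was not tested. Of 18 other endothelial genes 3 were lower, near the 11.8% of all genes, led by Clec14a, an endothelial lectin (-1.67 ± 0.44, adjusted p = 0.00564), and Mmrn2, a protein of the endothelial matrix (-1.20 ± 0.40, adjusted p = 0.029).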

How the data were processed

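RNA-seq counts of 31 laser-microdissected libraries were analysed. The authors deposited raw read counts per Ensembl gene, obtained per the paper's methods and the processing notes in the labels by amplification with a SMART-seq V4 kit, which does not mark strand, paired-end sequencing, TopHat2 2.1.0 alignment to mm10 and HTSeq counting; the setting for strand was not given in the sources used here. A row with no gene name (1) was left out. The study's own comparisons used DESeq2, and columns of them were not used.

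Counts were tested with edgeR 4.0.16 in R 4.3.3 (quasi-likelihood, TMM scaling, filterByExpr, all 31 libraries in 1 fit, Benjamini-Hochberg adjustment over 19332 genes, threshold 0.05). CPM used the TMM library sizes. Depth ran from 3512627 to 36705535 counts. A group with 0 counts was read against a floor of 3 counts over the group, which covers counting error only. Early libraries were grouped by the published group means, and the labels were run as an alternative. Levels relative to Cdh5 were compared on log2(CPM + 0.5) with SciPy 1.17.1. Symbols, exon lengths and overlaps came from GENCODE M21 and promoters from RefSeq on GRCm38. The fits were tested on simulated counts.

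Library values were given for the 20 called members with the highest mean CPM, and at most 2 genes a list for the other lists, those with the largest fold change among called genes with a group mean of at least 5 CPM. The members and lists were chosen with earlier results of these data known. Same-numbered ON and outer ONL libraries deviated together from their group means over 11570 genes (correlations 0.257 to 0.516 in 4 pairs, all over 0.1). Differently numbered libraries of these groups had correlations of -0.389 to 0.387, so the ranges overlapped. The block was fitted for this pair of groups because all same-numbered correlations were over 0.1, and no other pair of groups met that condition. The alternatives were DESeq2 1.42.0, upper quartile or total count scaling, leaving out the filter, a filter of 1 CPM in 4 libraries, a log2 fold change of at least 1, the groups alone, E16.5 alone, the block, other references and pseudocounts, and leaving out each library. A gene that the naming rule chose from these lists is not reported here.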

Additional observations from a re-analysis of the deposited data

Results flagged for a closer look

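Of 214 sets of values for 1 gene in 1 group of 4 to 7 libraries, 12 held a library far from the others. Chance alone gives about 1 in 20, which is close to the share found. Outer ONL replicate 3 was far above its group in Pecam1 (106.8 CPM), Slc2a1 (283.3 CPM) and Abcc9 (38.07 CPM), and outer ONL replicate 1 far below it in Acta2 (2.378 CPM). ON replicate 3 at E16.5 was high in Abcc9 (65.47 CPM) and inner ONL replicate 2 low in Esam (54.77 CPM). Within E11.5 ON, the library labelled E13.5_ONL2 was low in Tie1 (0.106 CPM) and Abcc9 (0.3974 CPM), the one labelled E13.5_ONL5 high in Abcb1a (0.8406 CPM) and the one labelled E13.5_ONL4 far from the others in Myh11 (0.7884 CPM). The library labelled E11.5_ON4 stood apart from the other E13.5 ONL libraries in Emcn (54.92 CPM), and the one labelled E13.5_ON7 from the other E13.5 ON libraries in Slco1c1 (2.378 CPM).

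The ONL to nerve difference changed from E13.5 to E16.5, by the interaction test of edgeR with adjusted p-values over all genes, for Mfsd2a (1.872 on the log2 scale, adjusted p = 0.00635), Ocln (2.415, adjusted p = 0.0441), Des (2.188, adjusted p = 0.000571) and Tagln (-2.477, adjusted p = 0.0241). The call of Ocln was lost in 13 of the 20 fits that left out a library (edgeR's adjusted p from 0.0506 to 0.0971).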

How the results depend on the processing

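The number of members called stayed within 1.5 times with DESeq2, both other scalings, no filter, the stricter filter and a log2 fold change of at least 1. Under the labels, 2 members were called between ON and TN, 3 between inner and outer ONL, 7 from E11.5 to E13.5 in ON, 7 in the interaction and 0 relative to Cdh5. With the 2 groups fitted alone, 11 were called between ON and TN and 17 between inner and outer ONL; with E16.5 alone, 13 for the latter. With the replicate block, 23 were called between outer ONL and ON and 17 between inner and outer ONL, where same-numbered libraries did not pair; the block changed no other count by over 1.5 times. Leaving out 1 library gave 10 to 15 members for outer ONL and ON, 3 to 5 for ON and TN, 14 to 20 for outer ONL and TN, 4 to 9 for inner and outer ONL, 14 to 18 at E13.5, 25 to 28 and 13 to 20 for the steps in ON, 18 to 22 in ONL and 2 to 5 for the interaction. Of 1041 values of called genes under the other settings, 996 kept direction and call, 45 lost the call and 0 reversed; of 1331 with a library left out, 1174 kept both and 157 lost the call; of 136 under the labels, 72 kept both, 52 lost the call and 12 reversed. Scaling by total count moved the median of all genes by -0.14 between outer ONL and ON, 0.254 between ON and TN and 0.118 between outer ONL and TN, and by less than 0.1 elsewhere.

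The values that reversed under the labels were, between ONL and ON at E13.5, Mfsd2a (-0.055), Des (1.61) and Tagln (0.59); from E11.5 to E13.5 in ON, Kdr (-0.17), Tek (-0.15), Cldn5 (-0.53), Slco1c1 (-0.98), Abcb1a (-0.29) and Des (0.92); from E13.5 to E16.5 in ONL, Pdgfrb (-0.79) and Tagln (-0.48); and Des (-0.27) in the interaction. Relative to Cdh5, Pdgfrb (2.24) and Rgs5 (-2.44) reversed at E13.5, Plvap (0.041), Pdgfrb (1.05) and Rgs5 (-0.90) from E11.5 to E13.5, and Pdgfrb (-2.12) in ONL. With Tie1 in place of Cdh5, 12 values passed; Slc2a1 (-0.19) and Pdgfrb (-0.18) reversed in ON, and Slc2a1 (-0.63), Abcb1a (-0.19), Pdgfrb (-0.24) and Abcc9 (-0.64) in ONL, from E13.5 to E16.5. With Pecam1, 13 passed; Slc2a1 reversed in ON (-0.0047) and ONL (-0.035), and Abcc9 in ONL (-0.038). The cause of these changes was not tested. Depth limits genes near the floor, and 4 libraries a group limit the E16.5 comparisons.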
